A study of Caenorhabditis elegans with 4 samples.

Results

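Superoxide dismutases, catalases and peroxiredoxins are the enzymes that remove superoxide and hydrogen peroxide from cells. Their transcripts were followed in adult Caenorhabditis elegans as 10 genes chosen by name, sod-1 to sod-5, ctl-1 to ctl-3, prdx-2 and prdx-3, among 19852 deposited loci. All 10 were found, and 9 of them reached a mean of at least 1 RPKM (reads scaled by transcript length and by the reads mapped in the library), which sod-5 did not. None of the 9 was past 2-fold in any of the 4 comparisons between single libraries, on a log2 scale of RPKM + 1. Of all compared genes, 4.89% to 14.1% were, depending on the comparison. Averaged over both RNAi foods, sod-4 rose and prdx-2 fell in hypoxia by limma's test across all compared genes, each by less than 2-fold. That test called 32.9% of all compared genes for hypoxia and 1.11% for elt-2 RNAi. No gene of the family passed it for elt-2 RNAi, where the catalase gene ctl-2 had the lowest ratios.

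RNA from whole animals of the wild-type strain N2 was sequenced in 4 libraries, 1 for each combination of RNAi food and oxygen. The groups were elt-2 RNAi in hypoxia, elt-2 RNAi in normoxia, control (empty vector) RNAi in hypoxia and control RNAi in normoxia, all on NGM modified RNAi medium with a labelled temperature of 20 °C. Hypoxia was 36 h at 0.5% oxygen in nitrogen at room temperature, begun at day 1 of adulthood. The normoxia libraries are listed with the same 36 h from day 1 of adulthood. RNAi was given by feeding, in which worms eat bacteria that carry double-stranded RNA of the target gene, and elt-2 encodes a GATA transcription factor of the intestine. With 1 library per group, no value has a replicate error. The limma averages rest on 1 residual degree of freedom among the 4 libraries.

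Some facts of the libraries touch every result. The targeted gene went against its label, with elt-2 at 23.8 and 14.3 RPKM in the hypoxia and normoxia libraries labelled elt-2 RNAi, against 15.2 and 4.81 RPKM in control RNAi hypoxia and normoxia. Every RNAi direction below therefore rests on the labels. Ribosomal protein genes, 71 in number, held 23.7% and 23.9% of the summed RPKM in the hypoxia libraries (labelled elt-2 RNAi, then control), against 18.2% and 18.4% in the normoxia libraries. Several cell type marker sums differed with oxygen and others little. All 10 intestine markers were detected in every library, and their summed RPKM was 816 in hypoxia against 178 in normoxia with labelled elt-2 RNAi, and 562 against 263 with control RNAi. The 7 matched body wall muscle markers summed to 1594 in hypoxia against 693 in normoxia with labelled elt-2 RNAi, and 1695 against 741 with control RNAi. The 9 germline and oocyte markers went the other way, at 2886 in hypoxia against 3917 in normoxia with labelled elt-2 RNAi, and 2414 against 3457 with control RNAi. As log2 ratios of sums, hypoxia over normoxia, the 8 neuron markers were at 0.23 with labelled elt-2 RNAi and 0.16 with control RNAi, and the 8 epidermis markers at -0.17 and 0.18. The 5 pharynx markers, with phat-1 and phat-6 listed at 0 in a library, were at -0.15 and -0.73. The 6 sperm markers were at -2.39 and -2.76 on sums of 1.03 to 7.55 RPKM, with msp-56 and spe-11 listed at 0 in a library. Such sums can hide single genes. In the body wall muscle sum mlc-2 alone was at 288 to 890 RPKM. The epidermis sum was mostly col-19 (129.8 to 172.4 RPKM). The median log2 ratio of the 5 compared epidermis markers was 0.38 with labelled elt-2 RNAi and 0.47 with control RNAi. Among neuron markers, in the same order, unc-64 was higher in hypoxia (1.49 and 1.16) and unc-119 lower (-0.76 and -0.80). The part of these shifts in the results below was not tested, and in whole-animal RNA fewer cells of a type and less RNA per cell cannot be told apart.

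Superoxide dismutases convert superoxide, a by-product of respiration and other oxidation reactions, into hydrogen peroxide and oxygen. Catalases then split hydrogen peroxide into water and oxygen, mainly in peroxisomes, while peroxiredoxins reduce it with electrons passed on from thioredoxin. In worms the SODs are divided by place and metal. SOD-1 and SOD-5 are copper and zinc enzymes of the cytosol, SOD-2 and SOD-3 are manganese enzymes of the mitochondrial matrix, and SOD-4 is made in secreted and membrane-bound forms. CTL-1 is the cytosolic catalase and CTL-2 the peroxisomal one. PRDX-2 is the main cytosolic peroxiredoxin and PRDX-3 the mitochondrial one. sod-3 is widely used as a reporter of DAF-16, the FOXO transcription factor under insulin signalling.

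The family ran from very abundant to barely detected transcripts. By mean level over the 4 libraries, prdx-2 ranked 122 of 10655 compared genes, sod-1 ranked 567, prdx-3 ranked 793 and sod-2 ranked 946. The order then dropped to sod-4 (rank 5387), ctl-3 (5657), ctl-1 (5994), ctl-2 (6116) and sod-3 (9747). In every library prdx-2 was the highest of the family, with 63.5% and 68.3% of its summed RPKM in the hypoxia and normoxia libraries labelled elt-2 RNAi, and 57.4% and 67.3% in control RNAi hypoxia and normoxia. Together the 10 genes held 0.165% of all summed RPKM in hypoxia against 0.222% in normoxia with labelled elt-2 RNAi, and 0.156% against 0.224% with control RNAi. These shares also carry the total over all loci, which in hypoxia was 1.13 times (labelled elt-2 RNAi) and 1.16 times (control RNAi) the normoxia total. The sum of the 10 genes, mostly prdx-2, was 0.839 and 0.810 times its normoxia value in that order. Neighbours in the order were close: the ranges of sod-2 and prdx-3 over the 4 libraries overlapped, as did those of sod-1 and prdx-3, of sod-4 and ctl-3, and of the 3 catalases.

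**Figure D1:**
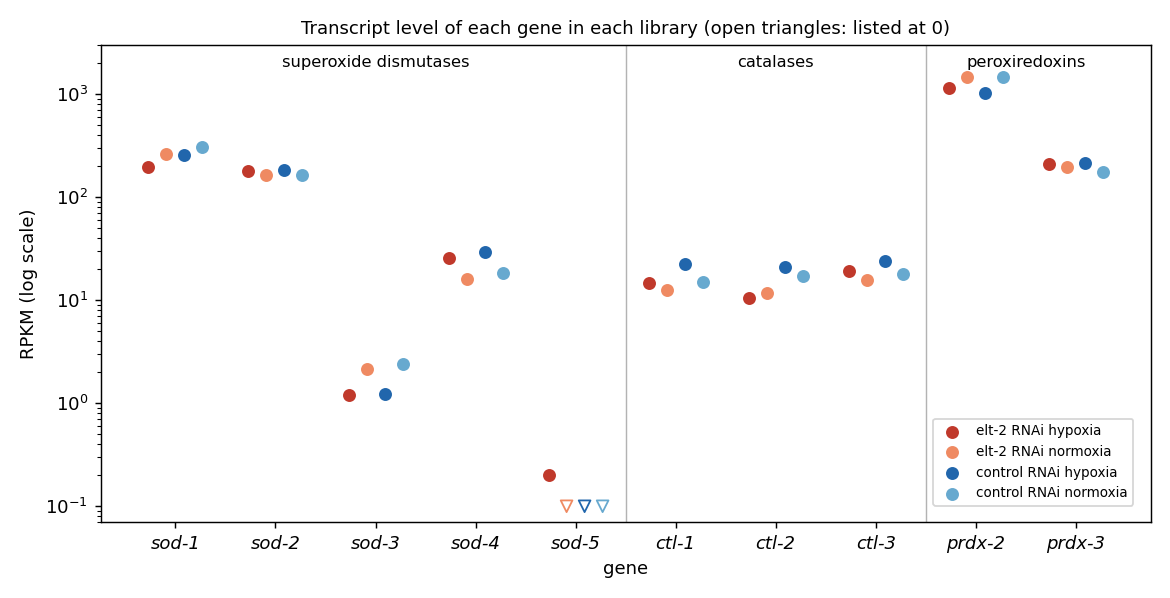
Transcript level of each gene (RPKM, log scale) in each of the 4 libraries, 1 point per library, with open triangles for values listed at 0. prdx-2 lies at 1011 RPKM or more in every library, sod-1, sod-2 and prdx-3 lie between 162 and 302, sod-4 and the catalases lie between 10.5 and 29.2, sod-3 lies between 1.19 and 2.37, and sod-5 is listed at 0 in all but 1 library.

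Hypoxia was compared with normoxia within each food. The hypoxia effects of the 2 foods share no library. Of the family 0 of 9 were past 2-fold with either food, where 14.1% of all compared genes were with labelled elt-2 RNAi and 13% with control RNAi. The median log2 ratio of the 9 was 0.08 with labelled elt-2 RNAi and 0.27 with control RNAi, where all compared genes had medians of -0.0093 and 0.012. In both foods sod-2, sod-4, ctl-1, ctl-3 and prdx-3 were higher in hypoxia, and sod-1, sod-3 and prdx-2 were lower. Of all compared genes, 42.4% were higher in both foods and 42.2% lower in both. In 7 of the 9 the hypoxia libraries did not overlap the normoxia libraries, against 68.9% of all compared genes, so this count is close to the background. Of the 7, 4 were higher and 3 lower, against 34.2% and 34.7% of compared genes. In limma's fit over all 4 libraries 2 of the 9 passed (22.2%), 1 higher and 1 lower, where 32.9% of compared genes passed, 17.2% higher and 15.7% lower. At an unadjusted p under 0.05 there were 5 of 9, against 50.2% of compared genes. None of these shares of 9 genes was tested against the background.

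Of the superoxide dismutases, sod-4, the extracellular enzyme, had the highest ratio. It lies on chromosome III from 9498075 to 9500113 (ce10, minus strand), and the current WBcel235 annotation gives it 4 transcripts, which the deposited value does not separate. sod-4 was at 25.6 RPKM in hypoxia against 16.1 in normoxia with labelled elt-2 RNAi, and at 29.2 against 18.4 with control RNAi. Both hypoxia libraries lay above both normoxia libraries. The log2 ratio was 0.64 with each food, so the effects differed by 0.0035. limma gave an average of 0.64 ± 0.10 (SE, 4 libraries; adjusted p = 0.0265), with a 95% interval of 0.36 to 0.92. sod-4 passed under each of the 8 alternatives fitted (adjusted p = 0.0217 to 0.0417). The authors' deposited tables gave it p-values of 0.400 with labelled elt-2 RNAi and 0.401 with control RNAi, and did not call it. The sums of intestine and muscle markers were higher in the same libraries, as given above. By limma's average hypoxia effect 7 of 10 intestine and 5 of 7 muscle markers passed as higher and 0 as lower, against 17.2% of compared genes higher. With control RNAi opt-2 (log2 ratio -0.06), unc-89 (-0.20) and myo-3 (-0.0003) were not higher. The part of these markers in the sod-4 value was not tested.

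sod-1, the main cytosolic superoxide dismutase (chromosome II, 6972670 to 6973850, minus strand), lay the other way. sod-1 was at 196 RPKM in hypoxia against 260.5 in normoxia with labelled elt-2 RNAi, and at 257 against 302 with control RNAi. Both hypoxia libraries were below both normoxia libraries, though control RNAi hypoxia and labelled elt-2 RNAi normoxia were nearly equal. The average log2 effect was -0.32 ± 0.08 (SE, 4 libraries; limma adjusted p = 0.0515), just short of the threshold, and it passed when the filter on the mean was raised to 5 RPKM (limma adjusted p = 0.0491, with a range of 0.0491 to 0.114 over 8 alternatives).

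The mitochondrial pair lay far apart in level. sod-2 (chromosome I, 8434544 to 8435805, plus strand) was at 179 RPKM in hypoxia against 162 in normoxia with labelled elt-2 RNAi, and at 181 against 163 with control RNAi. Its log2 ratios were 0.14 and 0.15 in that order, and it had the smallest span over the 4 libraries of the 9 genes, 0.16 on the log2 scale. limma gave sod-2 an average of 0.15 ± 0.06 (SE, 4 libraries; adjusted p = 0.138), with a 95% interval of -0.028 to 0.32. That interval carries only the spread among the 4 libraries, so it does not exclude a 2-fold change. The whole of sod-2 lies within the antisense locus F02E9.9, listed at 65.1 to 87.2 RPKM, and with strand treatment not given, reads of the pair may not be separated.

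sod-3 (chromosome X, 17092644 to 17094149, plus strand), its paralogue, was listed far lower. sod-3 was at 1.19 RPKM in hypoxia against 2.16 in normoxia with labelled elt-2 RNAi, and at 1.22 against 2.37 with control RNAi. The hypoxia libraries lay below the normoxia libraries with both foods, at 0.550 (labelled elt-2 RNAi) and 0.513 (control RNAi) of the normoxia RPKM. On the scale of RPKM + 1, which understates the change of a gene this low, the log2 ratios were -0.53 with labelled elt-2 RNAi and -0.61 with control RNAi. The average was -0.57 ± 0.17 (SE, 4 libraries; limma adjusted p = 0.0782), with a 95% interval of -1.07 to -0.07. The size depends on the pseudocount, at -0.86 with 0.1 RPKM and -0.23 with 5 RPKM. It passed when the mean-variance trend was left out of the fit (limma adjusted p = 0.0482, with a range of 0.0482 to 0.118 over the 7 alternatives that kept it). Per kilobase, sod-2 was listed 151 times as high as sod-3 in hypoxia and 74.9 times in normoxia with labelled elt-2 RNAi, and 149 and 68.8 times with control RNAi.

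sod-5, the minor cytosolic enzyme known mainly from dauer larvae, was at 0.201 RPKM with labelled elt-2 RNAi in hypoxia and listed at 0 in the other 3 libraries. It lies on chromosome II from 4417683 to 4419045 (plus strand). The authors' tables give it the status NOTEST in every comparison, and no ratio is given here. Summed over the 5 superoxide dismutases, the level was 402 RPKM in hypoxia against 441 in normoxia with labelled elt-2 RNAi, and 469 against 486 with control RNAi. Within that sum the ratio of sod-1 to sod-2 differed with oxygen, which was not tested. The other mitochondrial gene, sod-3, was lower in hypoxia, unlike sod-2. Per kilobase, sod-1 was 1.09 times as high as sod-2 in hypoxia against 1.61 times in normoxia with labelled elt-2 RNAi, and 1.42 against 1.85 times with control RNAi.

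**Figure D2:**
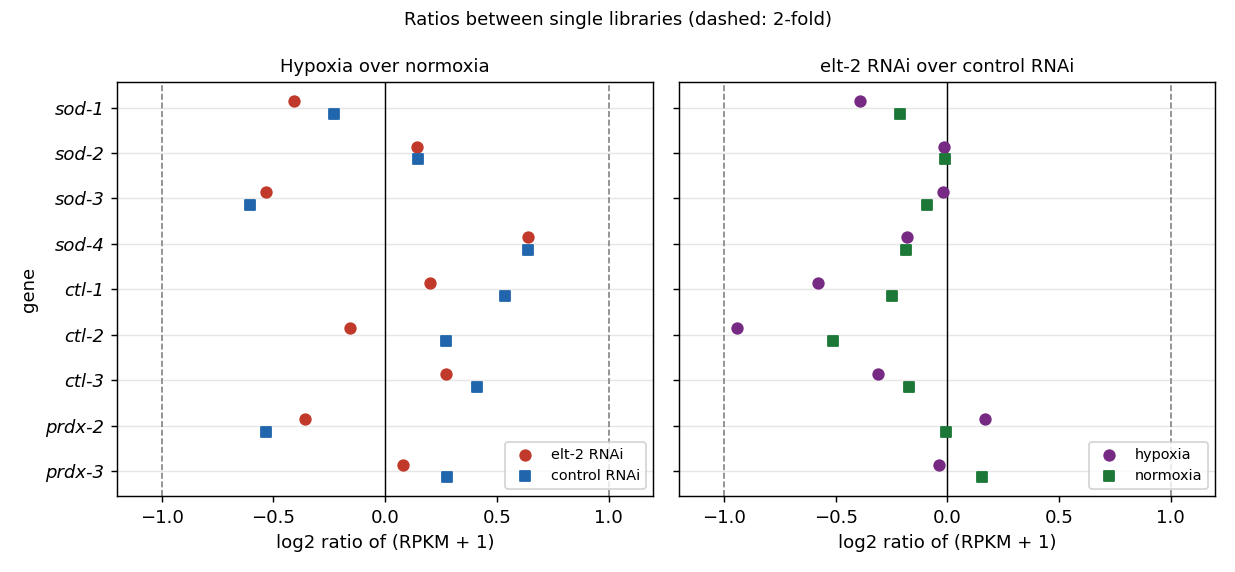
Log2 ratios of (RPKM + 1) of the 9 compared genes, hypoxia over normoxia with each food (left) and labelled elt-2 RNAi over control RNAi at each oxygen level (right), 1 library against 1 library per point. No point crosses the dashed 2-fold lines. sod-4 is at 0.64 with both foods on the left, and ctl-2 is at -0.51 and -0.94 on the right.

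Of the peroxiredoxins only prdx-2 passed the test. It lies on chromosome II from 5378051 to 5379615 (plus strand), with 3 transcripts in the WBcel235 annotation. prdx-2 was at 1137 RPKM in hypoxia against 1458 in normoxia with labelled elt-2 RNAi, and at 1011 against 1462 with control RNAi. Both hypoxia libraries lay below both normoxia libraries, and the normoxia values were nearly the same with each food. The log2 ratios were -0.36 with labelled elt-2 RNAi and -0.53 with control RNAi, and the average was -0.44 ± 0.10 (SE, 4 libraries; limma adjusted p = 0.0421; 95% interval -0.72 to -0.17). The call was lost with no filter on low values (adjusted p = 0.0688) and without the mean-variance trend (adjusted p = 0.0710), in a limma range of 0.0326 to 0.0710 over 8 alternatives. In the authors' deposited tables prdx-2 had the smallest p of the family for hypoxia, 0.354 with labelled elt-2 RNAi and 0.175 with control RNAi, and was not called. The germline and oocyte marker sum was lower in the same libraries, though glh-1 was at 0.04 with labelled elt-2 RNAi and -0.04 with control RNAi. The part of these markers in the prdx-2 value was not tested.

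prdx-3 (chromosome III, 4407414 to 4408409, plus strand) was at 208 RPKM in hypoxia against 197 in normoxia with labelled elt-2 RNAi, and at 214 against 176 with control RNAi. The hypoxia libraries were the higher ones with both foods, by 0.08 and 0.28 on the log2 scale. Its average was 0.18 ± 0.08 (SE, 4 libraries; limma adjusted p = 0.156). Per kilobase, prdx-2 was 5.47 times as high as prdx-3 in hypoxia against 7.42 times in normoxia with labelled elt-2 RNAi, and 4.73 against 8.30 times with control RNAi. The ratio of the cytosolic to the mitochondrial peroxiredoxin transcript was thus lower in hypoxia with each food, as was that of sod-1 to sod-2. Neither ratio was tested or set beside those of other genes.

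The 3 catalase genes stand side by side on the minus strand of chromosome II. In rising coordinates they are ctl-2 (14299477 to 14301974), ctl-1 (14303484 to 14306217) and ctl-3 (14307778 to 14310703), with 1509 and 1560 bases between them. They are tandem copies of similar coding sequence, so reads may have been divided among them, and single values are less certain than their sum. ctl-2 also shares 81 bases with the antisense locus Y54G11A.7, which was at 36.0 RPKM in hypoxia against 6.23 in normoxia with labelled elt-2 RNAi, and at 32.1 against 7.31 with control RNAi.

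In hypoxia no catalase gene passed limma's test. ctl-1 was at 14.5 RPKM in hypoxia against 12.5 in normoxia with labelled elt-2 RNAi, and at 22.2 against 14.999 with control RNAi. ctl-3, known from pharyngeal muscle and neurons, was at 19.3 against 15.8 with labelled elt-2 RNAi, and at 24.1 against 17.9 with control RNAi. ctl-2 was at 10.5 against 11.8 with labelled elt-2 RNAi, and at 21.1 against 17.3 with control RNAi. Hypoxia libraries overlapped normoxia libraries for ctl-1 and ctl-2 and did not for ctl-3. The average log2 effects were 0.37 ± 0.14 for ctl-1, 0.06 ± 0.16 for ctl-2 and 0.34 ± 0.11 for ctl-3 (SE, 4 libraries; limma adjusted p = 0.116, 0.781 and 0.0822). For ctl-3 the 95% interval ran from 0.03 to 0.65, which carries only the spread among the 4 libraries and does not exclude a 2-fold change. As a sum, the catalases were at 44.3 RPKM in hypoxia against 40.1 in normoxia with labelled elt-2 RNAi, and at 67.4 against 50.1 with control RNAi.

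**Figure D3:**
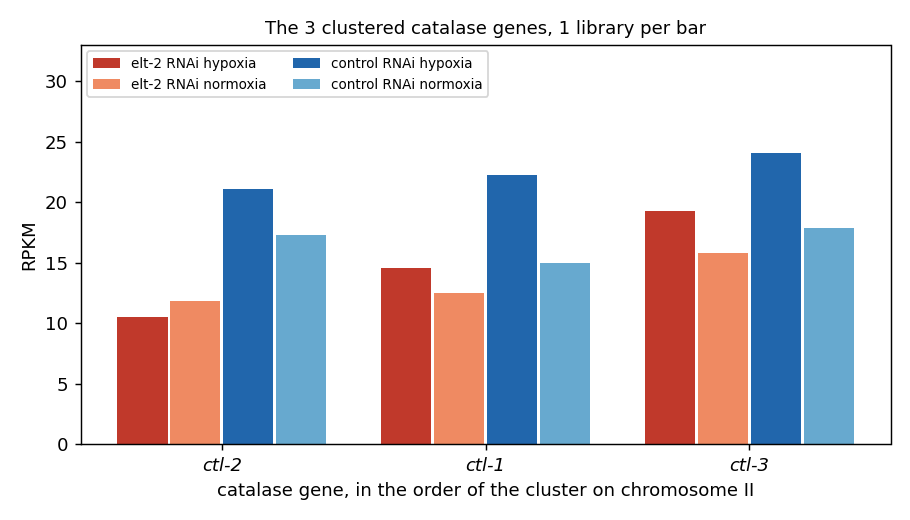
RPKM of the 3 catalase genes in the order of their cluster on chromosome II, with 1 bar per library. In each gene the libraries labelled elt-2 RNAi are lower than the control RNAi library of the same oxygen level, most so for ctl-2, at 10.5 against 21.1 RPKM in hypoxia.

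The libraries labelled elt-2 RNAi were compared with control RNAi at each oxygen level. Past 2-fold were 7.02% of all compared genes in hypoxia and 4.89% in normoxia, against 0 of 9 family members at each level. The median log2 ratio of the 9 was -0.18 in hypoxia and -0.17 in normoxia, where all compared genes had medians of 0.05 and 0.04. Over both oxygen levels limma called 0 of 9, with 1.11% of compared genes called. At an unadjusted p under 0.05 there were 3 of 9 (sod-1, ctl-1 and ctl-2), where 16.3% of compared genes passed. The authors' deposited tables also called none of the 9 in any of the 4 comparisons, with 0 at an unadjusted p under 0.05. Those tables called few loci of any kind. For hypoxia they called 0.712% of tested loci with labelled elt-2 RNAi and 0.467% with control RNAi, and for labelled elt-2 RNAi 0.921% in hypoxia and 0.531% in normoxia.

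The catalase genes ctl-2 and ctl-1 had the lowest RNAi ratios of the family at each oxygen level. ctl-2 was at 10.5 RPKM with labelled elt-2 RNAi against 21.1 with control RNAi in hypoxia, and at 11.8 against 17.3 in normoxia, so that neither library labelled elt-2 RNAi reached a control library. The log2 ratios of RPKM + 1 were -0.94 in hypoxia and -0.51 in normoxia. Without a pseudocount the hypoxia library labelled elt-2 RNAi had 0.498 of the control value, so ctl-2 sat at the 2-fold limit, and the authors' deposited table gives a log2 fold change of -1.01 with a p of 0.186. limma's average was -0.73 ± 0.16 (SE, 4 libraries; adjusted p = 0.207), with a 95% interval of -1.18 to -0.27.

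For ctl-1 the log2 ratios were -0.58 in hypoxia and -0.25 in normoxia, and its libraries did not overlap either. The average for ctl-1 was -0.41 ± 0.14 (SE, 4 libraries; limma adjusted p = 0.303). ctl-3 was at -0.31 in hypoxia and -0.17 in normoxia, with overlapping libraries and an average of -0.24 ± 0.11 (adjusted p = 0.358). The ratios were thus lowest at ctl-2 and least low at ctl-3 at each oxygen level, in the order of the cluster, a description of 4 libraries with no test. Libraries of the 2 foods did not overlap in 2 of the 9 genes, both lower, against 24.2% of all compared genes and 9.87% that were lower. As shares of the catalase sum, ctl-2 held 23.7% with labelled elt-2 RNAi against 31.3% with control RNAi in hypoxia, and 29.5% against 34.5% in normoxia. Intestine markers were mixed in the same libraries. Their sum was at 816 RPKM with labelled elt-2 RNAi against 562 with control RNAi in hypoxia, and at 178 against 263 in normoxia. Of the 10, 4 were lower with labelled elt-2 RNAi in hypoxia and 7 in normoxia, and ges-1, pgp-3 and nhx-2 were lower at both levels. All 8 epidermis markers were lower with labelled elt-2 RNAi at both levels, but dpy-7, rol-6 and wrt-2 had means below 1 RPKM. Of the 5 compared epidermis markers, 0 passed limma's test for RNAi, with a median effect of -0.25. The epidermis sums, mostly col-19, were 145 RPKM against 192 with control RNAi in hypoxia and 164 against 169.9 in normoxia. Of the 9 germline and oocyte markers, 0 were lower with labelled elt-2 RNAi at either level. The part of these lists in the catalase ratios was not tested.

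Among the other genes, sod-1 was lower with labelled elt-2 RNAi at both oxygen levels, with log2 ratios of -0.39 in hypoxia and -0.21 in normoxia and an average of -0.30 ± 0.08 (SE, 4 libraries; limma adjusted p = 0.252). sod-4 was at -0.18 at each level, with an average of -0.18 ± 0.10 (adjusted p = 0.399). The mitochondrial genes and prdx-2 lay near 0. The averages were -0.013 ± 0.061 for sod-2, -0.06 ± 0.17 for sod-3, 0.08 ± 0.10 for prdx-2 and 0.06 ± 0.08 for prdx-3. The 95% intervals were -0.19 to 0.16 for sod-2, -0.19 to 0.36 for prdx-2 and -0.17 to 0.29 for prdx-3. For sod-3 the interval was -0.56 to 0.45, on a scale of RPKM + 1 that understates changes of a gene this low. With 1 library per group these intervals carry only the spread among the 4 libraries, so none of them excludes a 2-fold change. Between foods the hypoxia effects of sod-2 and sod-4 differed by -0.0028 and 0.0035. The largest differences of hypoxia effects, labelled elt-2 RNAi minus control, were those of ctl-2 (-0.43) and ctl-1 (-0.34). No residual degree of freedom is left to test them.

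**Figure D4:**
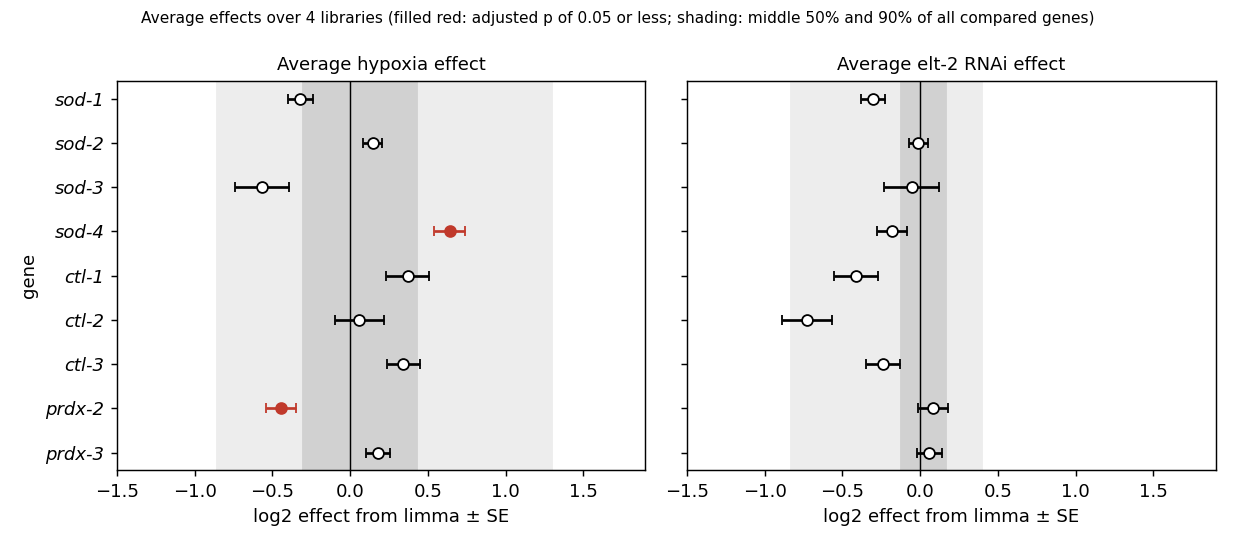
Average log2 effects of hypoxia (left) and of labelled elt-2 RNAi (right) over the 4 libraries, from limma, with SE bars, for the 9 compared genes. Filled red points, sod-4 at 0.64 and prdx-2 at -0.44, had an adjusted p of 0.05 or less, and grey bands show the middle 50% and 90% of all 10655 compared genes.

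Genes that act with these enzymes were listed by role, and their counts stand beside the 17.2% of all compared genes that rose in hypoxia and the 15.7% that fell by the same test. Of 6 compared glutathione peroxidases, which also reduce peroxides, gpx-4 rose in hypoxia (average log2 effect 0.79 ± 0.18, SE, 4 libraries; limma adjusted p = 0.0462) and none fell, with a list median of 0.26 against 0.0095 over all compared genes. The level of gpx-4 was low, at 0.858 to 2.41 RPKM. gpx-6 and gpx-7 followed at 0.76 and 0.33, short of the threshold. Of 8 compared genes of the thioredoxin system, which supplies peroxiredoxins with electrons, 3 rose and 1 fell (median 0.34). The mitochondrial thioredoxin trx-2 was at 151 RPKM in hypoxia against 76.4 in normoxia with labelled elt-2 RNAi, and at 155 against 74.0 with control RNAi, an average of 1.02 ± 0.07 (SE, 4 libraries; limma adjusted p = 0.0143). The sestrin sesn-1 and trx-4 rose, with averages of 0.66 and 0.45, and txl-1 fell, with an average of -0.45. The peroxiredoxin gene prdx-6 was at 53.0 RPKM in hypoxia against 46.5 in normoxia with labelled elt-2 RNAi, and at 63.2 against 43.0 with control RNAi (limma adjusted p = 0.0865).

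Glutathione synthesis and recycling genes had a median average effect of -0.073, with gsr-1, glutathione reductase, the only one of 8 to pass, at -0.45, followed in size by glrx-22 at 0.24 and glrx-5 at -0.13. Among 7 NADPH supply genes tald-1 rose by 0.38 and the malic enzyme gene men-1 fell (-0.46), while idh-2 was at -0.31 (median 0.10). Of 6 genes of the mitochondrial unfolded protein response, timm-23, dve-1 and hsp-6 rose, by 1.04, 0.91 and 0.83, and none fell (median 0.43). In peroxisome biogenesis, prx-1 and prx-5 rose by 0.92 and 0.89 and none of 10 fell, with prx-3 at 0.57 (median 0.49). The level of prx-1 was low, at 0.706 to 2.57 RPKM. Of 5 oxidases and peroxidases skpo-1 fell (-0.63) and no other passed, with tsp-15 at 0.44 and bli-3 at 0.32 (median 0.02).

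Of 17 regulators of oxidative stress responses, 1 rose and 5 fell in hypoxia (median -0.17), against 17.2% and 15.7% of all compared genes. pqm-1, a zinc finger factor, was at 1.42. The insulin pathway genes daf-2 and age-1 were at -0.65 and -0.54, and aak-2, hsf-1 and hcf-1 were at -0.52, -0.43 and -0.34. The transcripts of daf-16 and skn-1 were at 0.06 and -0.29, both short of the threshold. Of 7 DAF-16 targets outside the family, ftn-1, dod-3, mtl-1 and hsp-12.6 rose, with averages of 2.84, 2.79, 1.34 and 0.94, and none passed as lower (median 0.94), where sod-3 was at -0.57 and short of the threshold. These targets were not uniform between foods. With labelled elt-2 RNAi, then control RNAi, the log2 ratios were 1.52 and 4.06 for dod-3 (limma adjusted p = 0.0497). They were 1.92 and 3.75 for ftn-1, listed at 0.069 RPKM in labelled elt-2 RNAi normoxia, and -1.02 and 0.38 for lys-7. The level of hsp-12.6 was low, at 0.358 to 1.92 RPKM. Of 8 SKN-1 targets, gst-4, gst-10, nit-1 and gst-7 fell, with averages of -2.90, -2.70, -2.32 and -0.64, and gst-5 rose, at 0.97 (median -0.49). Some of these also differed between foods. In the same order of foods, the log2 ratios were -3.96 and -1.84 for gst-4, -3.59 and -1.81 for gst-10, and 1.23 and -1.27 for gst-38. Those of nit-1 were alike, at -2.25 and -2.40.

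For labelled elt-2 RNAi limma called 1 gene of these 10 lists, the metallothionein mtl-1, at -2.07 (adjusted p = 0.0247). The share called for RNAi among all compared genes was 1.11%. The mtl-1 call depended on a setting, as a fit that omitted the trend left 0 RNAi calls among all compared genes. ftn-1, a ferritin, and lys-7, a lysozyme, were at -3.08 and -1.53 and did not pass, and the DAF-16 target list had a median of -0.78 against 0.05 over all compared genes. Of the peroxisome genes, which serve the compartment that holds CTL-2, prx-3, prx-12 and prx-11 were at -1.64, -0.78 and -0.71 (median -0.37), and 0 of 10 passed. The glutathione peroxidase gpx-7 was at 0.880 RPKM with labelled elt-2 RNAi against 7.997 with control RNAi in hypoxia, and at 0.684 against 5.39 in normoxia. Its average was -2.09 ± 0.19 (SE, 4 libraries; limma adjusted p = 0.0505), just short of the threshold.

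**Figure D5:**
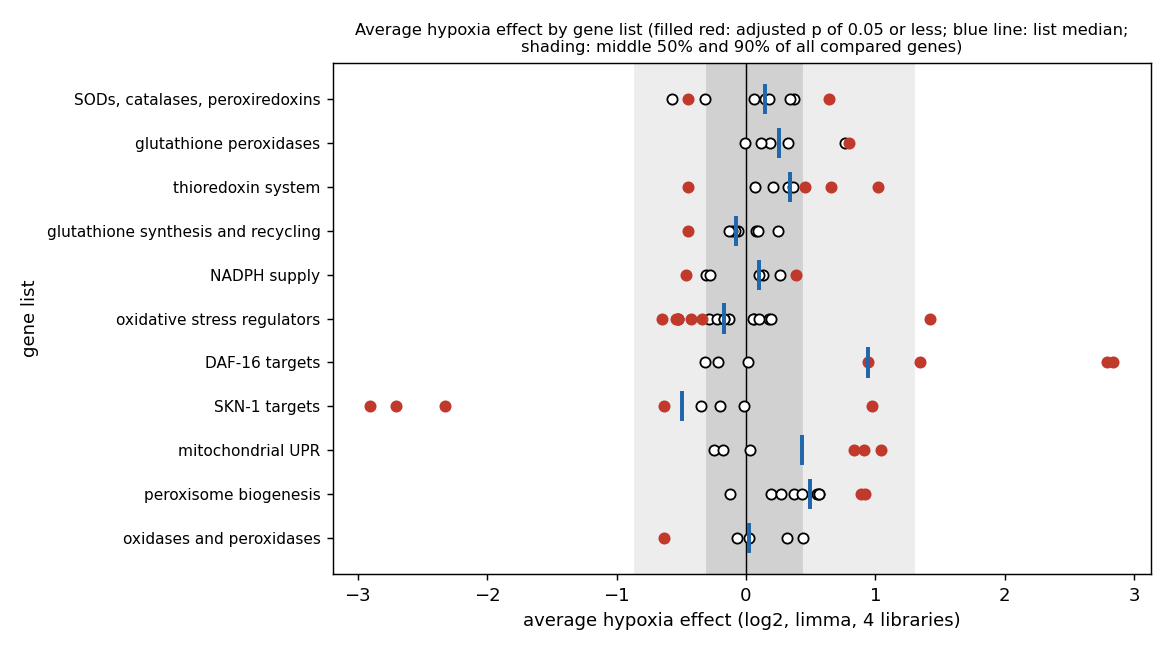
Average hypoxia effect (log2, limma, 4 libraries) of each compared gene, in the family (top row) and in 10 lists of related genes, with filled red points at an adjusted p of 0.05 or less a blue line at each list's median and grey bands for the middle 50% and 90% of compared genes. The family lies between -0.57 and 0.64, a narrower range than the DAF-16 and SKN-1 target lists, which reach 2.84 and -2.90. Other lists are narrower than the family, such as glutathione synthesis and recycling (-0.45 to 0.24) and NADPH supply (-0.46 to 0.38).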

How the data were processed

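Gene RPKM were deposited by the authors in 6 pairwise tables of the 4 libraries. Values of a library were the same in every table that held it. Cufflinks 2.1.1, TopHat2 2.0.8b and build ce10 are credited to the submitters' processing notes, which state no roles. Not given in the sources used here are the annotation, read filters and strand treatment. The deposited log2 fold changes and p-values come from the authors' own single-library tests, per the file headers, and are named as theirs where printed.

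Log2 ratios of (RPKM + 1) were computed for the 10655 genes whose mean over the 4 libraries reached 1 RPKM, with 1 gene name per locus and no status of FAIL, HIDATA or LOWDATA. With 1 library per group these have no test. Average effects came from limma 3.58.1 (R 4.3.3), run over all compared genes of the 4 libraries (additive oxygen and RNAi terms, mean-variance trend, Benjamini-Hochberg adjustment, threshold 0.05), after a run on simulated data. The 1 residual degree of freedom is the interaction, so the fit favours genes that moved alike with both foods. No source states separate cultures, so a p-value covers only the spread among these 4 libraries, which may be technical.

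The family and lists were chosen with earlier results of these data known. Named genes were all 10 members and, of each list, the 3 with the largest absolute effect; further list genes were named after their values were seen. Genes resembling a member were to be named only for members spanning a log2 of 1 over the libraries, and 0 did. List names are current symbols, matched by accession or name through WBcel235 tables. Steps between low values put the RPKM of 1 read, relative to control RNAi normoxia, at 0.886 and 1.09 with labelled elt-2 RNAi (hypoxia, then normoxia) and at 0.996 in control RNAi hypoxia. Absolute depth is unknown, so no counting interval is given.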

Additional observations from a re-analysis of the deposited data

Results flagged for a closer look

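Some effects changed sign between the levels of the other factor, which with 1 library per group was not tested as a difference. For ctl-2 the hypoxia effect was -0.16 with labelled elt-2 RNAi and 0.27 with control RNAi, on the log2 scale. For prdx-2 the effect of labelled elt-2 RNAi was 0.17 in hypoxia and -0.0040 in normoxia. For prdx-3 that effect was -0.039 in hypoxia and 0.16 in normoxia. All of these are within 2-fold.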

How the results depend on the processing

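No paired analysis was possible because each group has 1 library, and for the same reason no replicate could be left out. Of 248 member ratios recomputed under the alternatives, 0 were past 2-fold. Settings that only change which genes are kept leave a ratio as it is, so only the other pseudocounts and the centring could move one. The count holds no ratio without a pseudocount, where ctl-2 for labelled elt-2 RNAi in hypoxia was at 0.498 of the control value. The largest was ctl-2 for labelled elt-2 RNAi in hypoxia, at an absolute log2 of 1.00 with a pseudocount of 0.1. The average RNAi effect of sod-2 was 0.0083 when libraries were centred on the median gene, against -0.013, and the ratios of sod-2 and prdx-2 for labelled elt-2 RNAi in normoxia turned to 0.026 and 0.034. Limma calls among members were 1 for hypoxia with no filter on low values (sod-4), against 2, and without the trend they were sod-4 and sod-3. Counts over all genes moved by more than 1.5 times as follows; as fewer genes were tested at a mean of at least 5 RPKM, those counts also fell. For hypoxia with labelled elt-2 RNAi, genes past 2-fold were 719 with a pseudocount of 5 RPKM and 274 past 4-fold, against 1505. For hypoxia with control RNAi they were 634, 917 at a mean of at least 5 RPKM and 206 past 4-fold, against 1388. For labelled elt-2 RNAi in hypoxia they were 415 with a pseudocount of 5, 479 at a mean of at least 5 RPKM and 256 past 4-fold, against 748. In normoxia they were 803 with a pseudocount of 0.1, 249 with one of 5, 340 at a mean of at least 5 RPKM and 144 past 4-fold, against 521. Limma's hypoxia calls were 2215 with no filter and 2182 without the trend, against 3510. Its RNAi calls were 51 with a pseudocount of 5, 48 with no filter and 0 without the trend (1397 at an unadjusted p under 0.05), against 118. Counts past 4-fold are lower than those past 2-fold by definition, and a larger pseudocount shrinks every ratio. The cause of the other shifts was not tested. Low level and unknown depth limit sod-3 and sod-5, and low genes of the lists such as gpx-4, prx-1 and hsp-12.6.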
